A study of Drosophila melanogaster with 6 samples.

Results

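Transcripts of 8 genes that make or break down the moulting hormone were examined in whole Drosophila melanogaster larvae homozygous for a mutation of the kinase gene Cdk8. The genes were chosen by name, as nvd, spok, sro, phm, dib, sad, shd and Cyp18a1, by a rule that used no measured value, although earlier results of these data were known. All 8 were found among the 17562 genes of the count table. All 8 passed the filter on low counts, dib only through the control libraries. RNA-seq was performed at the wandering stage of the last larval instar, when larvae leave the food, on 3 libraries of cdk8K185 homozygotes and 3 libraries of the control strain w1118, each made from 10 pooled larvae. The cdk8K185 allele is described by the study as a null allele of Cdk8, and its deletion also removes part of the neighbouring gene I-2. By the same account its stock was kept over a balancer that marks larvae and was outcrossed to w1118. Homozygotes die by the pupal stage, and they reach that stage on product supplied by their mothers. The study lists its RNA-seq under another series, and its description was taken to hold for these larvae because the design matches. No age, sex or sequencing batch is labelled, so a difference in age within the wandering stage cannot be told apart from one of genotype. Nothing in the labels says that the pools came from separate cultures, so p-values measure only the spread between these libraries.

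Ecdysteroids time every moult of the fly. Dietary sterol is turned into ecdysone in the prothoracic gland, which forms part of the small ring gland beside the larval brain, by a chain of enzymes encoded by the Halloween genes and their partners. Ecdysone is then released and converted by Shade in other tissues into the active hormone, and Cyp18a1 inactivates that hormone. The gland is a small part of a whole larva, and in bulk RNA fewer gland cells and less RNA per gland cell cannot be told apart.

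Library totals ran from 9208564 to 11724703 counts. Of 10632 genes tested with edgeR, 3919 (36.9%) had an adjusted p under 0.05 between the genotypes, 2114 (19.9%) of them higher and 1805 (17.0%) lower in cdk8K185. Cdk8 itself gave 4.73 to 7.22 CPM (counts scaled for library size and composition) in cdk8K185 and 8.83 to 10.1 CPM in w1118, with a log2 fold change of -0.63 (adjusted p = 0.0344), and I-2 averaged 5.38 CPM in cdk8K185 and 31.5 CPM in w1118. Cdk8 was lower in every cdk8K185 library than in any w1118 library, but its cdk8K185 mean was still 64.7% of the w1118 mean, so the counts do not show a loss of its transcript, and which part of the gene these reads cover is not known from a gene count.

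Of the 8 genes, 7 had lower transcript levels in cdk8K185 larvae, 0 had higher levels and 1, Cyp18a1, did not pass the test. The background was 17.0% of all tested genes called lower. The 7 were nvd, spok, sro, phm, dib, sad and shd, all of the synthesis genes. Their libraries did not overlap between the genotypes, against 53.6% of all tested genes with no overlap. Of the 7, dib passed the filter on low counts only through w1118, the group where it was higher. The median log2 fold change of the 8 genes was -1.29, and that of all tested genes was 0.02. The largest difference was in spok, which was 9.62-fold lower, and the other called genes were 1.88-fold (nvd) to 3.02-fold (sro) lower.

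**Figure D1:**
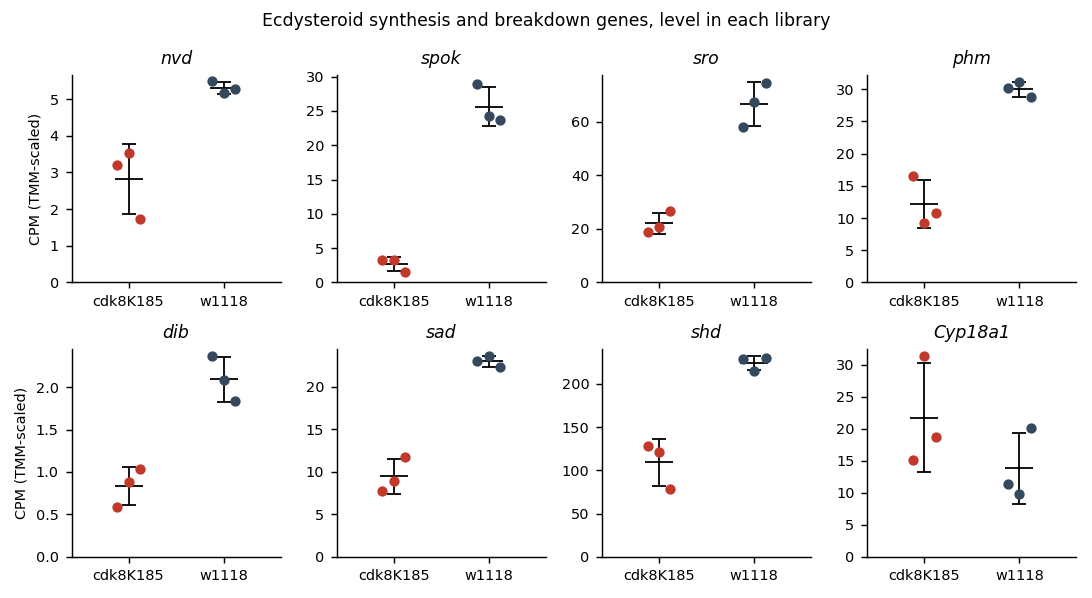
Level of each of the 8 genes in each library, in CPM on a linear axis that starts at 0, with cdk8K185 libraries in red and w1118 libraries in dark blue, a long line for the mean and bars for the SD (n = 3 each). For every gene but Cyp18a1 the 3 cdk8K185 libraries sit under the 3 w1118 libraries.

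The first step from the sterol was examined in nvd (neverland, FBgn0287185, 3L:24324866-24401655, plus strand, BDGP6.54), which encodes a Rieske oxygenase that introduces a double bond into cholesterol. The nvd gene gave 38, 36 and 20 counts in the cdk8K185 libraries and 58, 52 and 49 counts in the w1118 libraries. These were 3.21, 3.52 and 1.72 CPM in cdk8K185, against 5.48, 5.16 and 5.28 CPM in w1118. The w1118 libraries lay close together, the cdk8K185 libraries were spread and the third of them was the lowest. The level averaged 2.82 ± 0.964 CPM in cdk8K185 and 5.31 ± 0.163 CPM in w1118 (SD, n = 3 each), with a log2 fold change of -0.91 and an SE of 0.30 (adjusted p = 0.0476 by edgeR). The call was near its threshold, and leaving out any 1 of the 6 libraries ended it, with a log2 fold change of -1.09 to -0.63 and an adjusted p of 0.0569 to 0.109.

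Among the enzymes of the poorly understood middle steps, often called the black box, spok (spookier, FBgn0086917, 3R:3322810-3354486, plus strand) encodes a cytochrome P450 of the larval gland. The spok gene gave 39, 33 and 17 counts in the cdk8K185 libraries and 306, 244 and 220 counts in the w1118 libraries. In CPM these were 3.29, 3.23 and 1.46 in cdk8K185 and 28.9, 24.2 and 23.7 in w1118. Every cdk8K185 library was far below every w1118 library. The mean was 2.66 ± 1.04 CPM in cdk8K185 and 25.6 ± 2.88 CPM in w1118 (SD, n = 3 each), a log2 fold change of -3.27 (SE 0.27, edgeR adjusted p = 0.00025). Of 10632 tested genes ordered from the most negative log2 fold change, spok was at rank 151, and the next of the 8 genes, sro, was at rank 971. Both nvd and spok are long genes for their transcripts, with merged exons of 1722 and 1767 bases in spans of 76790 and 31677 bases, and no other gene overlapped either of them.

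The sro gene (shroud, FBgn0262112, 3R:29794597-29795805, plus strand) encodes a short-chain dehydrogenase that also acts in the black box. It gave 223, 213 and 309 counts in cdk8K185 libraries and 615, 679 and 691 counts in w1118 libraries. The levels were 18.8, 20.9 and 26.6 CPM in cdk8K185 and 58.1, 67.4 and 74.4 CPM in w1118. No cdk8K185 library reached the lowest w1118 library. The mean was 22.1 ± 4.01 CPM in cdk8K185 and 66.6 ± 8.17 CPM in w1118 (SD, n = 3 each), 3.02-fold lower, with a log2 fold change of -1.59 and an SE of 0.16 (adjusted p = 0.000446 by edgeR). The annotation places Rnb on the other strand over 109 exon bases of sro. Strand use in the counting is not given in the sources used here, and Rnb had a log2 fold change of -0.54 (edgeR adjusted p = 0.0215).

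The last steps to ecdysone are carried out by 3 hydroxylases of the P450 family, which act one after another. The phm gene (phantom, annotated as phtm, FBgn0004959, X:18685766-18688433, plus strand), the first of them, gave 16.5, 9.30 and 10.8 CPM in cdk8K185 libraries and 30.2, 31.1 and 28.8 CPM in w1118 libraries, from 95 to 195 counts in cdk8K185 and 267 to 319 counts in w1118. The w1118 libraries were nearly level, and the highest cdk8K185 library was still well below them. Its mean was 12.2 ± 3.79 CPM in cdk8K185 and 30.0 ± 1.16 CPM in w1118 (SD, n = 3 each), 2.46-fold lower, and the log2 fold change was -1.30 (SE 0.21, edgeR adjusted p = 0.00314).

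The dib gene (disembodied, FBgn0000449, 3L:4062292-4064551, plus strand) encodes the next hydroxylase and was the scarcest of the 8 genes, with 7, 9 and 12 counts in cdk8K185 libraries and 25, 21 and 17 counts in w1118 libraries. These were 0.591, 0.881 and 1.03 CPM in cdk8K185 and 2.36, 2.08 and 1.83 CPM in w1118. The genotypes did not overlap, although every value rested on 25 counts or fewer. The mean was 0.835 ± 0.224 CPM in cdk8K185 and 2.09 ± 0.266 CPM in w1118 (SD, n = 3 each), 2.51-fold lower, with a log2 fold change of -1.32 (SE 0.37, edgeR adjusted p = 0.029). Leaving out any 1 library other than the w1118 library of replicate 3 ended the call, with log2 fold changes of -1.48 to -1.13 and an adjusted p of up to 0.108. The receptor gene wit lies on the other strand over 400 exon bases of dib, and wit averaged 39.7 CPM in cdk8K185 and 37.7 CPM in w1118 (log2 fold change 0.08 and adjusted p = 0.664 by edgeR).

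The sad gene (shadow, FBgn0003312, 3R:11877235-11879754, plus strand) encodes the hydroxylase that completes ecdysone. It gave 92, 91 and 136 counts in cdk8K185 libraries and 244, 238 and 207 counts in w1118 libraries. In CPM these were 7.77, 8.91 and 11.7 in cdk8K185 and 23.1, 23.6 and 22.3 in w1118. The w1118 libraries lay close together, and every cdk8K185 library was below them. The mean was 9.46 ± 2.02 CPM in cdk8K185 and 23.0 ± 0.666 CPM in w1118 (SD, n = 3 each), 2.43-fold lower, with a log2 fold change of -1.28 (SE 0.16, edgeR adjusted p = 0.00114). CG6962 shares 53 exon bases with sad on the other strand and had a log2 fold change of 0.43 (edgeR adjusted p = 0.0427).

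The shd gene (shade, FBgn0003388, 3L:14614458-14622205, plus strand) encodes the enzyme that activates ecdysone outside the gland and was the most abundant of the 8. It gave 1520, 1243 and 912 counts in cdk8K185 libraries and 2423, 2166 and 2134 counts in w1118 libraries. The levels were 128, 122 and 78.4 CPM in cdk8K185 and 229, 215 and 230 CPM in w1118. The third cdk8K185 library was the lowest, and the genotypes were far apart. The mean was 109.5 ± 27.1 CPM in cdk8K185 and 224.6 ± 8.37 CPM in w1118 (SD, n = 3 each), 2.05-fold lower, with a log2 fold change of -1.04 (SE 0.18, edgeR adjusted p = 0.00499).

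The Cyp18a1 gene (FBgn0010383, X:18688538-18693042, minus strand) encodes a P450 that inactivates the hormone by hydroxylating and then oxidizing it. It lies 104 bases from the end of phm, and the 2 genes point toward each other. It gave 15.1, 31.3 and 18.7 CPM in cdk8K185 libraries and 11.4, 9.82 and 20.1 CPM in w1118 libraries, from 179 to 320 counts in cdk8K185 and 99 to 187 counts in w1118. The genotypes overlapped, as the highest w1118 library exceeded 2 of the cdk8K185 libraries. The mean was 21.7 ± 8.52 CPM in cdk8K185 and 13.8 ± 5.55 CPM in w1118 (SD, n = 3 each), and the log2 fold change of 0.65 (SE 0.36, edgeR adjusted p = 0.195) did not pass the test. This change rested on single libraries, since it was 0.29 without the cdk8K185 library of replicate 2 (adjusted p = 0.533) and 1.04 without the w1118 library of replicate 3 (adjusted p = 0.0587).

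**Figure D2:**
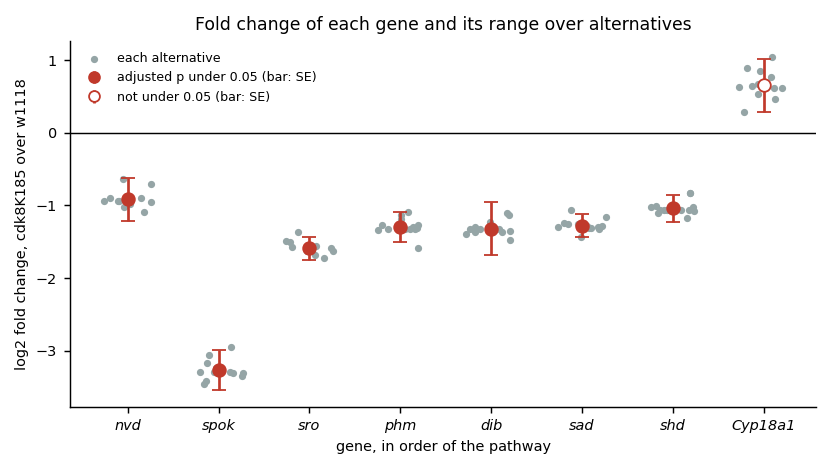
Log2 fold change of each gene, cdk8K185 over w1118, with its SE (large points and bars; filled where the adjusted p was under 0.05) and the value under each other way of processing or with 1 library left out (small grey points). The 7 synthesis genes stay negative under every alternative, spok stands lowest at -3.27, and Cyp18a1 is an open point at 0.65, with an adjusted p of 0.195.

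The cdk8K185 libraries did not rank alike for all genes. The replicate 3 library was the lowest of the 3 for nvd, spok and shd and the highest for sro, dib and sad, and phm was highest in replicate 1. For every synthesis gene the spread was wider in cdk8K185, with coefficients of variation of 18.15% to 39.07%, than in w1118, with 2.896% to 12.72%. These rest on 3 libraries each and on fewer counts in cdk8K185, and lower counts vary more in relative terms. The same comparison over all tested genes was not made, so nothing is concluded from this spread. For Cyp18a1 they were 39.3% in cdk8K185 and 40.2% in w1118.

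Levels of different genes were compared per length, as CPM per kilobase of merged exon (RPKM). In cdk8K185 larvae shd was the highest at 36.3 ± 8.995 RPKM, followed by sro at 19.1 ± 3.47 RPKM. Cyp18a1 (7.12 ± 2.79 RPKM), phm (5.53 ± 1.72 RPKM) and sad (5.33 ± 1.14 RPKM) came next, with neighbours whose libraries overlapped. At the lower end, nvd (1.64 ± 0.56 RPKM) and spok (1.51 ± 0.589 RPKM) overlapped, and dib was the lowest at 0.423 ± 0.113 RPKM.

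In w1118 larvae the order was shd (74.5 ± 2.78 RPKM) and sro (57.8 ± 7.08 RPKM), then spok (14.5 ± 1.63 RPKM), phm (13.6 ± 0.528 RPKM) and sad (13.0 ± 0.376 RPKM), of which spok overlapped with phm and phm with sad. Cyp18a1 (4.53 ± 1.82 RPKM), nvd (3.08 ± 0.0948 RPKM) and dib (1.06 ± 0.135 RPKM) followed without overlap. The places that differed between the genotypes were those of spok, which ranked 7 in cdk8K185 and 3 in w1118, of Cyp18a1, which ranked 3 in cdk8K185 and 6 in w1118, and of nvd, which ranked 6 in cdk8K185 and 7 in w1118. Among all tested genes spok stood at percentile 15.9 of RPKM in cdk8K185 and 61.9 in w1118.

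Summed over the 6 gland enzymes nvd, spok, sro, phm, dib and sad, the level was 50.2, 46.7 and 53.2 CPM in the cdk8K185 libraries and 148, 153.5 and 156 CPM in the w1118 libraries. The mean sum was 50.02 ± 3.26 CPM in cdk8K185 and 152.6 ± 4.14 CPM in w1118 (SD, n = 3 each), 3.05-fold lower. Without spok it was 47.4 ± 4.17 CPM in cdk8K185 and 127.0 ± 6.97 CPM in w1118, 2.68-fold lower. These sums are given as a description, with no test.

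Within the 6, spok held 5.79%, 5.78% and 2.25% of the summed RPKM in the cdk8K185 libraries and 16.7%, 13.2% and 12.5% in the w1118 libraries, with no overlap. Shroud transcripts took the largest share in both genotypes, 56.8 ± 5.91% in cdk8K185 and 56.0 ± 4.26% in w1118, and these overlapped. The ratio of spok to phm was 0.249, 0.433 and 0.17 in cdk8K185 libraries and 1.2, 0.972 and 1.03 in w1118 libraries. The ratio of spok to nvd was 1.0, 0.893 and 0.828 in cdk8K185 libraries and 5.14, 4.57 and 4.38 in w1118 libraries. The share of sad did not overlap either and lay the other way, at 13.6%, 15.9% and 17.9% in cdk8K185 libraries and 13.3%, 12.9% and 11.7% in w1118 libraries. A smaller share of spok raises the other shares, and the mean shares of nvd, sro, phm and dib were also higher in cdk8K185, with overlap. Both spok ratios separated the genotypes, while those of sro, sad and nvd to phm overlapped.

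**Figure D3:**
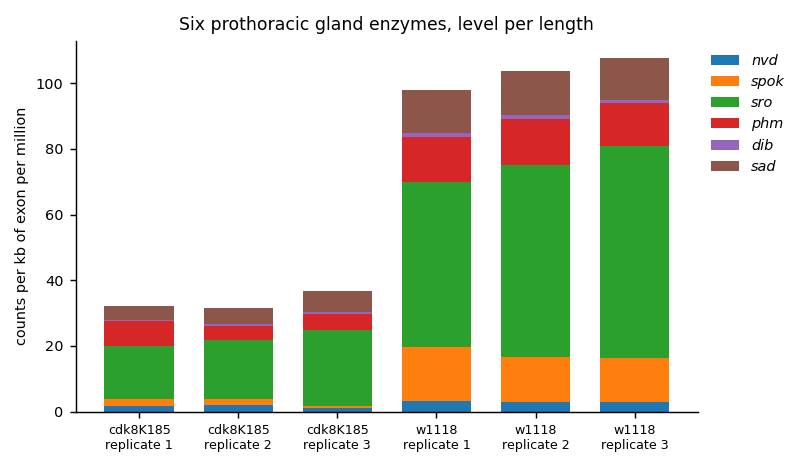
Stacked level of the 6 prothoracic gland enzymes in each library, in RPKM on an axis that starts at 0, with cdk8K185 libraries left of w1118 libraries. The stacks reach 31.6 to 36.8 RPKM in cdk8K185 and 97.8 to 107.5 RPKM in w1118, and the orange spok segment is a smaller share of the cdk8K185 stacks.

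The activating and the inactivating enzyme were set against each other. The RPKM ratio of shd to Cyp18a1 was 8.59, 3.93 and 4.25 in cdk8K185 libraries and 20.2, 22.1 and 11.5 in w1118 libraries. The ratio of phm to Cyp18a1 was 1.51, 0.411 and 0.797 in cdk8K185 libraries and 3.65, 4.38 and 1.98 in w1118 libraries. Neither ratio overlapped between the genotypes, although Cyp18a1 alone did. As shd and phm alone did not overlap either and Cyp18a1 was not called, the ratios show nothing more about Cyp18a1.

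Other genes of the pathway were then examined, from lists chosen with earlier results of these data known. The reads come from whole larvae, so a change in a gene of these lists need not be a change in the gland. Of 7 tested enzymes of hormone synthesis or breakdown and redox partners, 3 were higher, 1 was lower and 3 were not called. Among all tested genes 19.9% were higher and 17.0% lower, and the median log2 fold change of the list was 0.43. The 1 lower gene, Eo, acts in breakdown and not in synthesis. Cyp6t3, a P450 with a role in ecdysone synthesis, gave 26.5, 26.2 and 33.2 CPM in cdk8K185 libraries and 1.51, 1.29 and 1.19 CPM in w1118 libraries, opposite in direction to spok. Its log2 fold change was 4.41 (SE 0.17, edgeR adjusted p = 2.03e-05), and 63 of its exon bases are shared with CG8858 on the other strand. Cpr, the reductase that passes electrons to microsomal P450 enzymes, had a log2 fold change of 1.09 (adjusted p = 0.000284). Fdx2, a ferredoxin, had a log2 fold change of 0.78 (adjusted p = 0.00143). Eo, ecdysone oxidase, which inactivates ecdysteroids, averaged 6.99 ± 1.75 CPM in cdk8K185 and 17.7 ± 1.46 CPM in w1118 (log2 fold change -1.34, adjusted p = 0.00221). GstE14, the glutathione transferase needed for cholesterol handling in the gland, had 18, 12 and 7 counts in cdk8K185 libraries and 27, 26 and 22 counts in w1118 libraries, and its log2 fold change of -1.18 missed the threshold (adjusted p = 0.0542). The embryonic paralog of spok, spo, had 0, 0 and 0 counts in cdk8K185 libraries and 1, 1 and 0 counts in w1118 libraries and was not tested.

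Of 11 tested genes of sterol supply and ecdysone transport, 2 were higher, 4 were lower and 5 were not called (median log2 fold change -0.27), where 36.9% of all tested genes were called in either direction. Without the cdk8K185 library of replicate 1 the list had 3 calls in place of 6. Atet, the transporter that loads ecdysone into secretory vesicles of the gland, was the most changed, with 36.7, 32.4 and 25.4 CPM in cdk8K185 libraries and 131.5, 90.6 and 109.7 CPM in w1118 libraries (log2 fold change -1.81, edgeR adjusted p = 0.00054). The sterol-binding Niemann-Pick genes Npc2b and Npc2a had log2 fold changes of -0.93 and -0.60 (adjusted p = 0.000864 and 0.00927), and the related Npc2d had 0.41 (adjusted p = 0.0375). Start1, a candidate sterol carrier of the gland, had -0.39 (adjusted p = 0.0137), and Oatp74D, which imports ecdysone into target cells, had 0.50 (adjusted p = 0.0331).

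Of 15 tested transcription factors, 2 were higher, 6 were lower and 7 were not called (median log2 fold change -0.13), beside 36.9% called and 17.0% lower among all tested genes. Hr4, a nuclear receptor induced by the hormone, gave 2.20, 1.57 and 3.27 CPM in cdk8K185 libraries and 115.8, 16.5 and 66.3 CPM in w1118 libraries (log2 fold change -4.80 with an SE of 0.80, adjusted p = 0.00505 by edgeR). The w1118 libraries were uneven for Hr4, with a coefficient of variation of 75.02%, and far less so for the synthesis genes. The hormone-responsive genes br, Eip74EF and Eip75B had log2 fold changes of -1.55, -1.27 and -1.26 (adjusted p = 0.003, 0.0037 and 0.0103), the receptor gene EcR had -0.70 (adjusted p = 0.00562), and ftz-f1 had 1.30 (adjusted p = 0.00175). The zinc finger factors Molting defective and Ouija board are known regulators of spok, and the first also of nvd. The mld gene averaged 52.6 ± 5.09 CPM in cdk8K185 and 43.0 ± 5.31 CPM in w1118 (log2 fold change 0.29, adjusted p = 0.0991). The ouib gene had 7, 7 and 2 counts in cdk8K185 libraries and 8, 17 and 12 counts in w1118 libraries and was not tested.

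Of 22 tested signals and receptors that act on the gland, 2 were higher, 1 was lower and 19 were not called (median log2 fold change -0.09), a smaller share called than the 36.9% of all tested genes. Ilp8, the relaxin-like signal from discs that delays pupariation, had 31, 60 and 81 counts in cdk8K185 libraries and 2, 1 and 0 counts in w1118 libraries. All w1118 libraries were under the floor of 3 counts. Against that floor in each library Ilp8 was at least 17.1-fold higher in cdk8K185 (edgeR adjusted p = 0.00133). It passed the filter on low counts only through cdk8K185, the group where it was higher. The kinase gene rl (ERK) had a log2 fold change of -1.20 (adjusted p = 0.000969), and vn, a ligand of the EGF receptor, had 0.63 (adjusted p = 0.00452). The brain hormone gene Ptth had 15, 11 and 17 counts in cdk8K185 libraries and 4, 13 and 5 counts in w1118 libraries (log2 fold change 0.78, adjusted p = 0.273). Its receptor gene tor had 17, 3 and 14 counts in cdk8K185 libraries and 21, 23 and 23 counts in w1118 libraries (log2 fold change -1.17, adjusted p = 0.117).

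**Figure D4:**
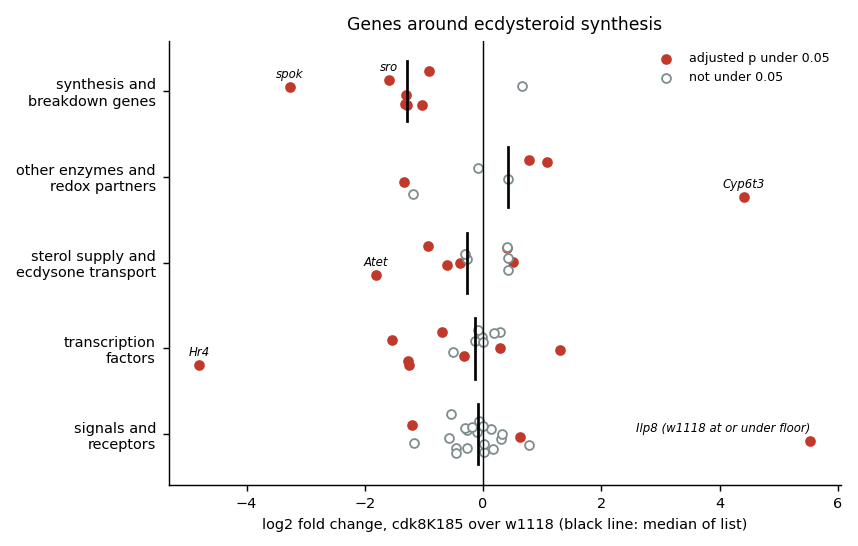
Log2 fold change, cdk8K185 over w1118, of each tested gene in the 8 synthesis and breakdown genes and the 4 other lists, with filled points where the adjusted p was under 0.05 and a black line for the list's median. The 8 genes have the lowest median, -1.29, while Cyp6t3 lies at 4.41 and Hr4 at -4.80. The point of Ilp8 is a fitted value against w1118 libraries under the floor and is no bound.

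Tissue markers were summed for each library, as other cell types can move with the genes. The 9 prothoracic gland markers summed to 48.8 to 55.2 CPM in cdk8K185 and 153.4 to 162.4 CPM in w1118, but 6 of them are the gland enzymes described above, which are also the 6 called lower, so this sum restates their values. The other 3, GstE14, ouib and tor, summed to 1.98 to 3.55 CPM in cdk8K185 and 5.29 to 6.55 CPM in w1118, and none was called, as GstE14 and tor missed the threshold and ouib was not tested. The corpora allata and corpora cardiaca markers, from the same ring gland, summed to 5.48 to 6.504 CPM in cdk8K185 and 3.69 to 5.17 CPM in w1118, with 0 of 2 called by edgeR.

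The 8 salivary gland markers summed to 1738 to 2691 CPM in cdk8K185 and 28840 to 35290 CPM in w1118, and all 8 were lower. These sums were almost wholly those of the Sgs genes, with log2 fold changes of -6.46 (Sgs1) to -2.06 (Sgs4). The other markers, fkh and sage, had -0.55 and -2.28 (edgeR adjusted p = 0.00749 and 6.05e-05). The sum is therefore no measure of the amount of salivary gland tissue. The 8 fat body markers, from a tissue in which shd acts, summed to 21360 to 44450 CPM in cdk8K185 and 71360 to 77150 CPM in w1118, with 3 lower. The gap between these sums rested on Fbp1, and without it they overlapped, at 17530 to 41910 CPM in cdk8K185 and 28930 to 43160 CPM in w1118. Lsp1gamma and apolpp were also called lower, with log2 fold changes of -1.45 and -1.22 (edgeR adjusted p = 0.028 and 0.00109). In this list 0 markers were called higher. For nerve cord and brain the 6 markers summed to 222 to 235 CPM in cdk8K185 and 347 to 383 CPM in w1118, with para higher and Syt1 lower. Without Syt1 these sums overlapped too, at 95.3 to 108.5 CPM in cdk8K185 and 88.3 to 116.8 CPM in w1118. Leaving out the marker with the largest difference was a choice made after the values were seen.

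The midgut and muscle markers overlapped between the genotypes, with 0 of 6 called by edgeR in each. The imaginal disc markers summed to 159 to 194.5 CPM in cdk8K185 and 134 to 154 CPM in w1118, with nub higher, and overlapped without nub. The Malpighian tubule markers summed to 884 to 1204 CPM in cdk8K185 and 661 to 720 CPM in w1118, with Uro higher. Without Uro the sums still did not overlap, but they were mostly Vha55, at 667 to 876 CPM in cdk8K185 and 586 to 641 CPM in w1118. Vha55 was not called (edgeR adjusted p = 0.124). The remaining markers ct and Irk3 had log2 fold changes of -0.29 and 0.32 and were not called. Every marker exceeded the floor of 3 counts in at least 1 library. The part of these marker differences in the levels of the 8 genes was not tested.

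**Figure D5:**
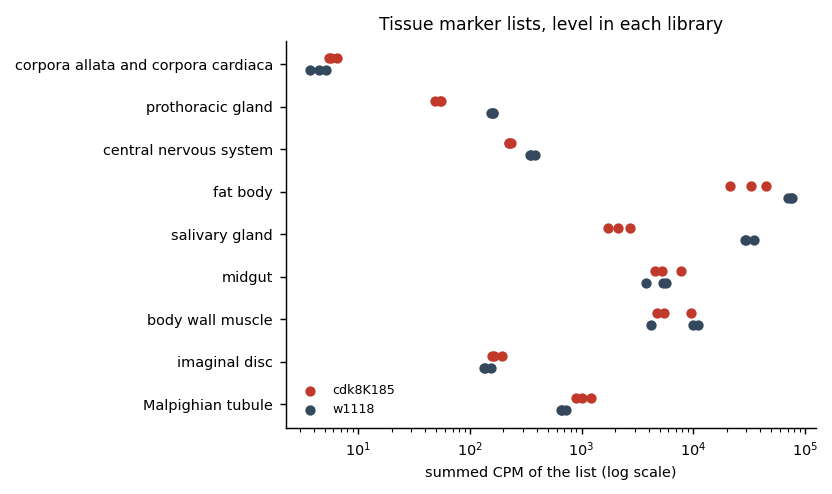
Summed CPM of each tissue's marker list in each library, on a log axis, with cdk8K185 in red above w1118 in dark blue. The sums of the salivary gland, fat body, central nervous system and prothoracic gland lists were lower in every cdk8K185 library. The salivary gland sums were almost wholly those of the Sgs genes. The gaps of the fat body and nervous system sums rested on Fbp1 and Syt1, although Lsp1gamma and apolpp of the fat body were also called lower. The midgut and muscle sums overlapped.

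The genes whose profile over the 6 libraries was most like that of 3 of the genes were searched by the root mean square difference of log2 CPM, each gene centred on its own mean, among 10589 genes. For spok they were CG30002 (0.122), CG12115 (0.158) and CG13962 (0.203). The nearest of the other 7 genes to spok was sro at 0.985, which ranked 688. For phm they were CG4586 (0.0967), Adgf-D (0.124) and frm (0.132), and the nearest of the other 7 genes was shd at 0.301, which ranked 180. For Cyp18a1 they were CG1074 (0.15), asRNA:CR45126 (0.178) and jhamt (0.195), of which none passed the test. The likeness is a description over 6 libraries that differ by genotype, and genes that differ by a like amount between the genotypes score as alike.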

How the data were processed

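The authors deposited raw counts per gene for 6 libraries, as whole numbers, with no normalization. The submitters' notes name STAR, featureCounts, DESeq2 and build dm6. Versions, annotation release, strand and multimapping are not given in the sources used here. Gene names and positions came from the BDGP6.54 annotation, in which 17476 identifiers had a symbol and 86 had none. Genes passed filterByExpr (minimum count 10, minimum total 15), and counts were scaled by TMM factors and tested two-sided with edgeR 4.0.16 in R 4.3.3 (quasi-likelihood, genotype only, Benjamini-Hochberg over 10632 genes, threshold 0.05). SE is the absolute log2 fold change over the square root of F. The fit was tested on simulated data. Alternatives were DESeq2 1.42.0, limma-voom 3.58.1, RLE factors, library totals, 2 count filters, a replicate block and each library left out. Figures used Python 3.11.15, pandas 2.3.3 and matplotlib 3.10.9.

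The 8 genes were chosen by name and not by their values, but they and the lists were chosen with earlier results of these data known. Named genes were the 8, the called genes of the other lists (at most 6 a list, by absolute log2 fold change), well-known partners that were not called, and for likeness the 3 nearest genes among those whose average log2 CPM was 0 or more.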

Additional observations from a re-analysis of the deposited data

How the results depend on the processing

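Over 103 refits of single genes, 88 kept direction and call, 15 lost the call and 0 reversed. The calls of spok (-3.46 to -2.95), sro (-1.73 to -1.37), phm (-1.59 to -1.10), sad (-1.44 to -1.06) and shd (-1.17 to -0.82) held in every alternative, as log2 fold changes. Cyp18a1 was called in none (0.29 to 1.04, adjusted p = 0.0587 to 0.533). With library totals nvd had -0.71 (adjusted p = 0.0897) and dib -1.10 (adjusted p = 0.0647), and with every gene that had 1 count anywhere kept, nvd had -0.89 (adjusted p = 0.0547) and dib -1.29 (adjusted p = 0.0528). Leaving out 1 library gave -1.09 to -0.63 for nvd and -1.48 to -1.13 for dib, and 3 to 6 calls in the sterol list. The cause of these lost calls was not tested. With at least 10 counts in every library dib was not tested. Of the 8 genes, 5 to 7 were called, and of all genes 2746 to 4655.

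Library totals moved the median of all genes by 0.22 and called 3452 higher and 1203 lower, against 2114 and 1805 with TMM, and DESeq2 called 1848 higher and 2324 lower. Whether the replicate numbers pair the samples was not settled by the correlations of same-numbered deviations, which were -0.19, 0.51 and 0.56. Those of replicates 2 and 3 were the highest of all pairs, but deviations from a group mean depend on each other. With the replicate block 3988 genes were called, 1906 higher and 2082 lower, and 7 of the 8 genes, and not every library correlated best with its own number. The dib values rest on 7 to 25 counts a library and those of nvd on 20 to 58.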
